A study of Homo sapiens with 26 samples.

Results

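RNA labeled by APEX2 from the inner face of the plasma membrane was compared between 2 membrane anchors, Lyn11 and Lck, in 14 of the series' 26 libraries. Members were taken by their titles: 4 Lyn11 labeled, 4 Lyn11 control, 3 Lck labeled and 3 Lck control libraries. The question was which RNAs both anchors enriched over their own unlabeled controls, and which differed between the anchors. The other 12 libraries carry APEX2 on the outer face, on CD28 or PDGFR constructs, and enter only as a side comparison.

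All 14 libraries come from HEK293T cells, a line derived from human embryonic kidney, that stably express an APEX2 fusion to the named target. The labels describe biotin-phenol for 30 min and then 1 mM hydrogen peroxide for 1 min, quenching, and streptavidin pulldown of biotinylated RNA, in the same words for labeled and control libraries. The step left out of the controls, the promoter of the fusions and whether each line is 1 clone are not given in the sources used here. Each anchor has its own stable line, so an effect of the anchor and of the line cannot be told apart. The series speaks of 3 biological replicates for labeled and for control libraries of each construct, whereas Lyn11 has 4 of each, and what the additional Lyn11 libraries are is not given in the sources used here. Where they share a culture or day, p-values measure only the spread between these libraries.

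APEX2 is a peroxidase that makes reactive phenoxyl radicals from biotin-phenol, so that molecules close to the enzyme acquire biotin. LYN and LCK are Src-family kinases, and fatty acyl groups on their N termini hold them at the cytoplasmic face of the membrane. Small nuclear RNAs of the spliceosome are made in the nucleus, receive a ring of Sm proteins in the cytoplasm and return to the nucleus, whereas immediate early genes such as *EGR1* and *FOS* are transcribed within minutes of a stimulus without new protein synthesis.

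Levels are the deposited log2 FPKM values (reads scaled to gene length and library depth), and a difference is labeled minus control on that scale. The reads behind them, recovered from the values, numbered 21.9 to 25.56 M reads in Lyn11 labeled and 22.64 to 34.8 M in Lyn11 control libraries, and 19.49 to 22.34 M in Lck labeled and 19.79 to 21.79 M in Lck control libraries. Replicates lay further apart with Lyn11: the median SD over genes was 0.34 in labeled and 0.31 in control libraries, against 0.20 in Lck labeled and 0.18 in Lck control libraries. Reads from mitochondrially encoded genes made up 0.685 to 1.651% of Lyn11 labeled and 0.933 to 1.611% of Lyn11 control libraries, and 1.983 to 2.805% of Lck labeled and 1.438 to 2.007% of Lck control libraries. The part of this share in the differences between anchors was not tested. Of the genes the constructs are named for, *LYN* averaged 3.17 ± 0.27 over 8 Lyn11 libraries, labeled and control, and 2.94 ± 0.04 over 6 Lck libraries (SD; exact permutation p = 0.0586, two-sided), and *LCK* was not analysed here. Of the HEK293T line markers, *NEFL* had 1371 to 3096 reads and *VIM* 4568 to 11561 reads in every library, whereas the T cell marker *CD3E* had 16 to 40 and the epithelial marker *EPCAM* 13 to 32.

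Sequences of the small nuclear RNAs come first, because these genes gave some of the largest differences shared by the anchors and because many copies of U1 cannot be told apart by sequence. RNU1-1, a standard U1 gene, RNVU1-6 and RNVU1-15, variant U1 genes that were higher with both anchors, and RNVU1-1, a variant that was not called, are shown with RNU4-2, a gene of the U4 RNA. They are GENCODE 29 transcripts on hg38, at chr1:16514122-16514285 (minus strand) for RNU1-1, chr1:146052081-146052244 (minus strand) for RNVU1-6, chr1:144412576-144412740 (plus strand) for RNVU1-15 and chr1:148362370-148362533 (minus strand) for RNVU1-1. RNU4-2 is at chr12:120291763-120291903 (minus strand). Capitals mark ACTTACCTGG (bases 3 to 12 of RNU1-1, searched within 14 bases of the start), the stretch with which U1 pairs with the 5′ splice site, and ATTTNTG or ATTTTTTG, letters like those of the site where the Sm ring sits, searched on the transcript strand.
RNU1-1: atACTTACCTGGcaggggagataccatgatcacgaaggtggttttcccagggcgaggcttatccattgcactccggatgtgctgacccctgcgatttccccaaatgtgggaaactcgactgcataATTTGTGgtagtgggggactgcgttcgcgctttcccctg
RNVU1-6: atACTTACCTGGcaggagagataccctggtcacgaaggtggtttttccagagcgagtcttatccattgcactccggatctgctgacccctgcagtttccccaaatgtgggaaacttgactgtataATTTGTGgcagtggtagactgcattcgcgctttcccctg
RNVU1-15: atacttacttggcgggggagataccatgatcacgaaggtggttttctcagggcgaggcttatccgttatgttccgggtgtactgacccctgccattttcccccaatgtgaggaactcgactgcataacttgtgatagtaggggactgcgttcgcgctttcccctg
RNVU1-1: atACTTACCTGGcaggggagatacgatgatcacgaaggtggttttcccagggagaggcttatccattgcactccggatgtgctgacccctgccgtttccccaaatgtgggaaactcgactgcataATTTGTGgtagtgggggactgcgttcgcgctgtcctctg
RNU4-2: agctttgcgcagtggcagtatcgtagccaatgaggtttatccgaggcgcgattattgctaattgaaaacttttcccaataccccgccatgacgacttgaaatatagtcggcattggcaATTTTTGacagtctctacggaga

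RNAs called with Lyn11 were mostly called with Lck too, whereas in the main fit about as many Lck calls were shared with Lyn11 as were not. That second share depended on the fit. With each construct fitted alone 101 of 910 Lck calls were shared, and with libraries weighted by construct 181 of 1682. The counts that follow are from the main fit. That fit estimates each gene's spread over both anchors together. Its SEs and adjusted p-values therefore do not show the spread of each anchor's own libraries. Of 21332 genes tested, 341 (1.6%) were higher and 64 (0.3%) lower in Lyn11 labeled than in Lyn11 control libraries, and 492 (2.31%) were higher and 86 (0.403%) lower in Lck labeled than in Lck control libraries (limma, Benjamini-Hochberg adjusted p under 0.05, two-sided). In all 700 (3.28%) were called with at least 1 anchor. With both anchors 265 (1.24%) were higher and 18 (0.0844%) lower, and 0 went in opposite directions. The 283 shared genes (1.33%) were 69.9% of the 405 called with Lyn11 (1.9% of all tested) and 49.0% of the 578 called with Lck (2.71%). A higher level in the pulldown can reflect labeling, more of the RNA in the cells or more cells that carry it, and these cannot be told apart here.

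Calls made with 1 anchor mostly carried the same sign with the other. Of the 122 genes called with Lyn11 only, 115 had the same sign with Lck, and of the 295 called with Lck only, 289 had the same sign with Lyn11; both sets were chosen in part by the other anchor's miss, and 67.1% of all genes tested had 1 sign with both. Over the 492 genes higher with Lck, the 4 Lyn11 labeled libraries lay 0.98, 1.67, 1.30 and 1.59 above the Lyn11 control mean in the median, and the Lyn11 control libraries at 0.30, -0.04, -0.05 and -0.16. Over the 341 genes higher with Lyn11, the Lck labeled libraries lay 2.01, 2.03 and 1.89 above the Lck control mean, and the Lck control libraries at -0.07, 0.04 and 0.06. The groups did not overlap in either case, and the 1 control library that stood apart was Lyn11 control replicate 1. Across the 21332 genes the differences with Lyn11 and Lck correlated at Pearson 0.692 and Spearman 0.478, as a description of genes that are not independent, and over 5 ranges of mean level Pearson values ran from 0.614 to 0.764 and Spearman values from 0.657 in the lowest range to 0.33 in the highest.

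**Figure D1:**
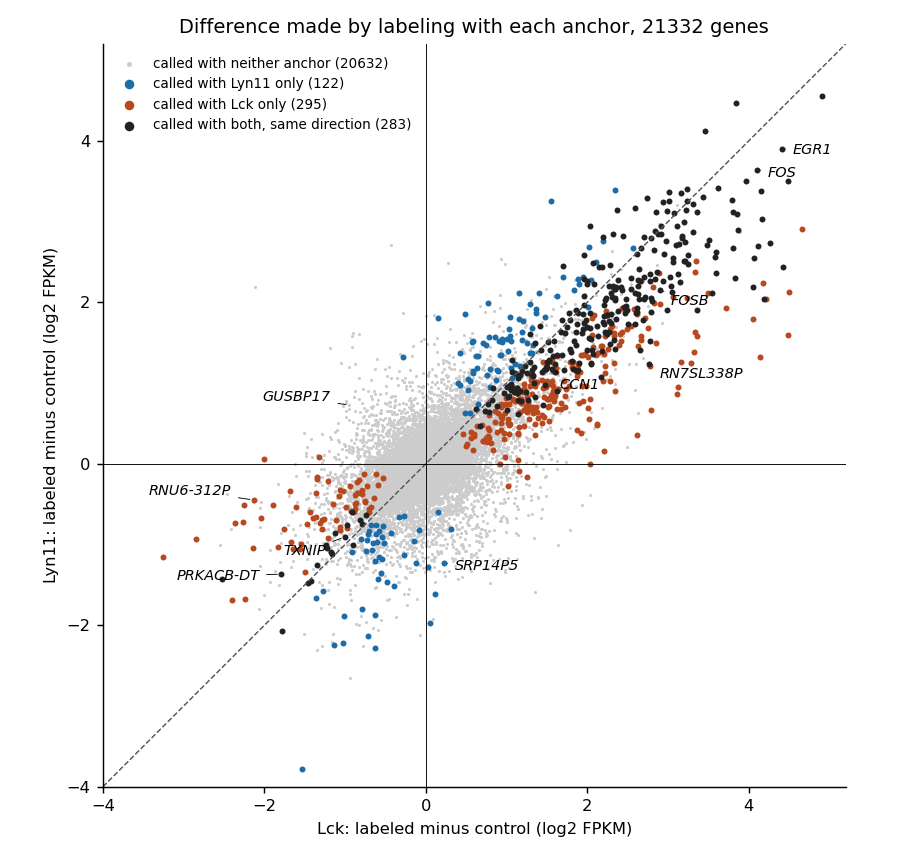
The Lyn11 difference (vertical axis, log2 FPKM) is plotted against the Lck difference (horizontal axis, log2 FPKM) for each of 21332 genes, coloured by the anchors with which the gene passed an adjusted p of 0.05, with the line of equality dashed. The 283 genes called with both anchors lie at the upper right and lower left, most of the higher ones under the dashed line.

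**Figure D2:**
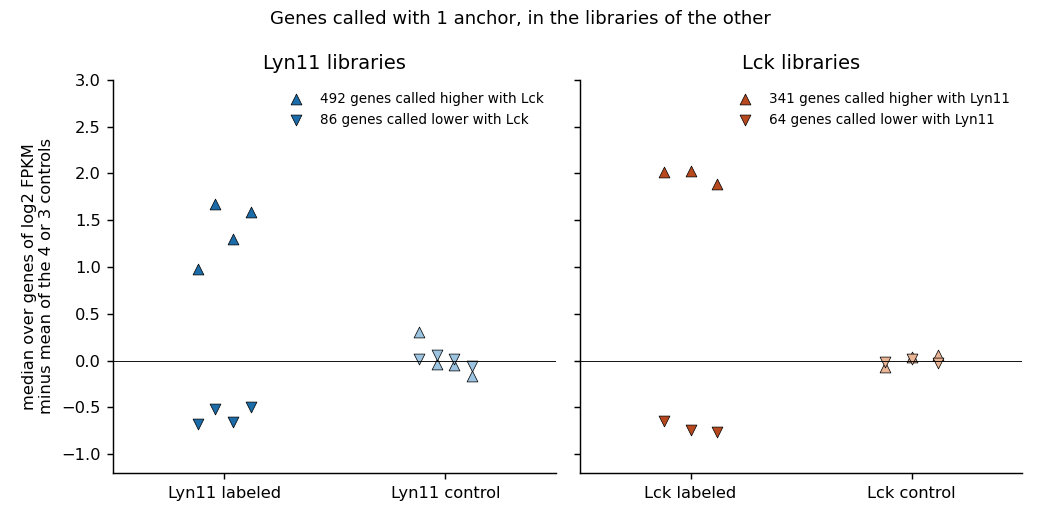
Each triangle is 1 library, at the median over genes of its log2 FPKM minus the mean of the same anchor's controls, for genes called with the other anchor (upward triangles, called higher; downward, called lower). Labeled libraries lie at 0.98 to 2.03 for genes called higher and at -0.76 to -0.50 for genes called lower, and controls at -0.16 to 0.30.

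The number of calls changed with the fit, and the cause was not tested. With libraries weighted by construct (0.668 for Lyn11 and 1.71 for Lck), 171 genes were higher and 15 lower with Lyn11, 1180 higher and 502 lower with Lck, and 181 were called with both. The share of Lck calls that were higher was 70.2% in that fit and 76.8% after quantile normalization, against 85.1% in the main one.

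Differences were somewhat smaller with Lyn11. Among the 265 genes higher with both, the median difference was 1.91 with Lyn11 and 2.28 with Lck, and the Lyn11 difference was the smaller in 219. Among all 21332 genes it was the smaller in 10559 (49.5%). The 341 genes chosen by the Lyn11 call alone had medians of 1.81 with Lyn11 and 2.0 with Lck, and 223 of them had the smaller difference with Lyn11. The gap leaned on single libraries: without Lyn11 control replicate 1 the 265 genes had a Lyn11 median of 2.02 and 181 smaller differences, and without Lyn11 labeled replicate 1 a median of 2.05 and 185. Quantile normalization gave 1.72 with Lyn11 and 2.21 with Lck, and 235 smaller differences.

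No gene passed the test of the difference between the anchors. The Lyn11 difference minus the Lck difference gave 0 calls at an adjusted p under 0.05 (limma; 0%), and 436 genes (2.04%) had an unadjusted p under 0.05, below the 5% threshold itself. Each of the 26 alternatives that could give this contrast also gave 0 calls, with 66 to 788 genes at an unadjusted p under 0.05. A missed threshold does not show that the anchors act alike, and the precision varied by gene. The 95% interval of the difference lay within 1 log2 unit of 0 for 12420 genes (58.2%), but for only 51 of the 265 genes higher with both, which sit lower (median level 0.52, against 2.07 over all genes). For 16 of the 18 genes lower with both the interval lay within 1 log2 unit of 0.

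Among protein-coding RNAs, 5 immediate early genes rose with both anchors. Of 44 tested list members (49 in the matrix), 7 rose with Lyn11, 6 with Lck and 5 with both, *EGR1*, *EGR3*, *FOS*, *FOSB* and *CCN1*, against 1.6%, 2.31% and 1.24% of all genes. The list's median difference was 0.38 with either anchor, against -0.03 with Lyn11 and -0.04 with Lck over all genes, and 40 of the 44 had 1 sign with both, against 67.1% of all genes. Most members did not pass, such as *JUNB* (0.44 with Lyn11, 0.35 with Lck), *DUSP1* (0.74 and 0.90) and *NR4A1* (0.03 and -0.14). The 5 genes called with both kept both calls without Lyn11 labeled replicate 4, without Lyn11 control replicate 1 and without both libraries.

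*EGR1* (ENSG00000120738.7, chr5:138465490-138469315), a zinc finger transcription factor, gave the largest shared difference among the named mRNAs. Its levels were 4.20, 3.52, 3.93 and 3.79 log2 FPKM in Lyn11 labeled libraries, against 0.29, -0.35, 0.13 and -0.23 in Lyn11 control libraries. In Lck labeled libraries they were 4.25, 3.89 and 3.78, against -0.48, -0.43 and -0.42 in Lck control libraries. Labeled and control libraries did not overlap with either anchor, and labeled levels of the anchors did. Of all genes tested, 3.31% had every Lyn11 labeled library above every Lyn11 control and 1.87% below, and 12.7% had every Lck labeled library above every Lck control and 13.4% below. The difference was 3.90 ± 0.18 with Lyn11 (SE; limma adjusted p = 1.45e-07) and 4.41 ± 0.21 with Lck (adjusted p = 1.89e-07), from 884 to 1345 reads against 56 to 119 with Lyn11 and 1032 to 1268 against 46 to 53 with Lck. The Lyn11 minus Lck difference was -0.51 (95% interval -1.11 to 0.09; unadjusted p = 0.0882, limma adjusted p = 0.999).

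The 250 bases before the *EGR1* start (RefSeq, GRCh38.p14, chr5:138465229-138465478, plus strand) are shown because *EGR1* had the largest shared difference among the named mRNAs. Capitals mark 2 CArG boxes, the motif known to bind serum response factor, searched on both strands, on which it reads alike. The motif stands in 1.14% of 27305 promoters of this length and in 5 of the 84 promoters found for the 114 protein-coding genes higher with both (5.95%), against 1.02% of 10245 promoters of protein-coding genes tested. Of 32 immediate early promoters found, 2 held it, those of *EGR1* and of *SRF*, which was called with neither anchor. The 250 bases before *FOS* and *FOSB*, called with both, held 0, and *CCN1* and *EGR3* were not among those found. Bases further upstream were not searched, so these counts do not show that a promoter lacks the motif.
EGR1 promoter: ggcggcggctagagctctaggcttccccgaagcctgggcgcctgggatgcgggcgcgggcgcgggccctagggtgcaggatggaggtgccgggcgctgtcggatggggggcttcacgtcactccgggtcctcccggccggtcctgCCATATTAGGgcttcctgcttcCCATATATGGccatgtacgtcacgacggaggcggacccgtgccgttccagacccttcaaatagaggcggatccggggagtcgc

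*FOS* and *FOSB* encode subunits of the AP-1 transcription factor. *FOS* stood at 2.46, 2.46, 2.64 and 2.67 in Lyn11 labeled libraries, against -0.30, -1.37, -1.73 and -0.93 in Lyn11 control libraries, and at 2.80, 2.21 and 2.05 in Lck labeled libraries, against -1.75, -0.98 and -2.51 in Lck control libraries. Its difference was 3.64 ± 0.34 with Lyn11 (SE; limma adjusted p = 9.87e-05) and 4.10 ± 0.40 with Lck (adjusted p = 0.000171), and labeled and control libraries did not overlap. *FOSB*, which overlaps *ERCC1* on the opposite strand, rose by 2.15 ± 0.25 with Lyn11 and 2.90 ± 0.29 with Lck, and its Lyn11 minus Lck interval of -1.57 to 0.07 included 0.

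The other members called were *CCN1*, *EGR3*, *JUN*, *GADD45B* and *FOSL2*. *CCN1*, a secreted matrix protein, stood at 3.83, 3.88, 3.92 and 3.69 in Lyn11 labeled libraries, against 2.86, 2.71, 2.54 and 2.52 in Lyn11 control libraries, and at 4.14, 3.79 and 3.59 in Lck labeled libraries, against 2.19, 2.45 and 2.18 in Lck control libraries, with no overlap. It rose by 1.17 ± 0.14 with Lyn11 and 1.56 ± 0.16 with Lck (SE; limma adjusted p = 0.000412 and 0.000171). *EGR3*, a relative of *EGR1* read at 5 to 172 reads, rose by 2.50 ± 0.44 and 3.06 ± 0.51. *JUN*, the partner of FOS in AP-1, and *GADD45B*, a stress-induced signalling adaptor, passed with Lyn11 only (0.63 ± 0.13 with Lyn11 and 0.54 ± 0.15 with Lck for *JUN*, 1.04 ± 0.21 and 0.87 ± 0.24 for *GADD45B*). *FOSL2* passed with Lck only, at 0.60 ± 0.16 with Lyn11 and 0.78 ± 0.19 with Lck. For these 3 genes the Lyn11 minus Lck interval included 0, so a pass with 1 anchor is not a difference between anchors. *EGR3* lost its Lyn11 call with all 26 libraries in the fit, with each construct fitted alone and with a replicate block (limma adjusted p up to 0.172), and its Lck call with all 26 libraries and with the block (up to 0.0958). *JUN* kept its Lyn11 call in 19 of 27 alternatives, losing it among others without Lyn11 labeled replicate 4 or Lyn11 control replicate 3 or 4, and passed with Lck in 2. *GADD45B* kept its Lyn11 call in 22, losing it among others without Lyn11 control replicate 2, 3 or 4, and passed with Lck in 8. *FOSL2* lost its Lck call in 12 of 27 alternatives, among them without any 1 of the 6 Lck libraries.

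**Figure D3:**
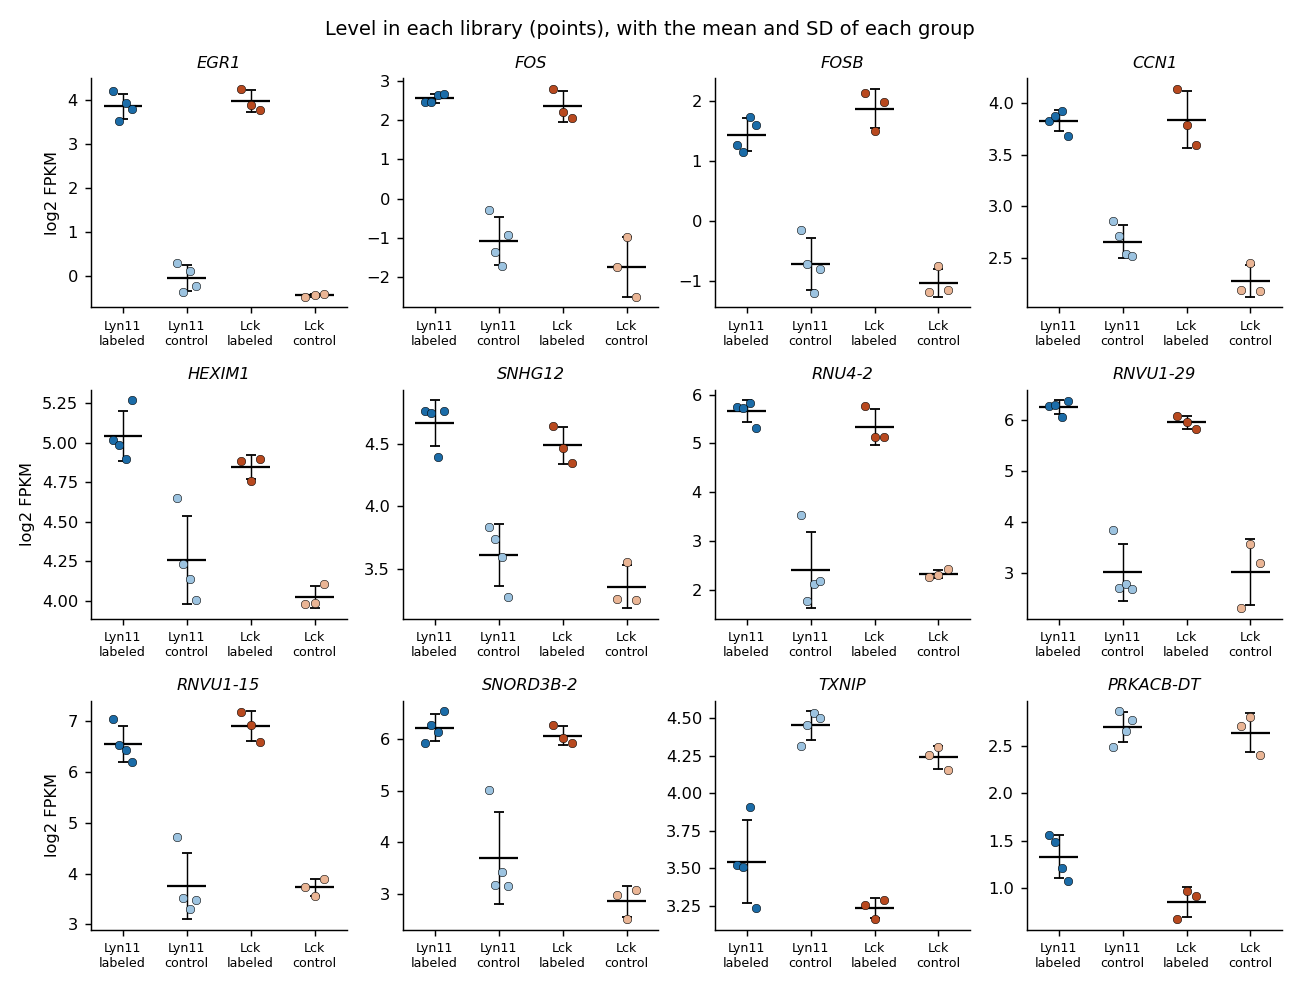
Each panel shows 1 gene's log2 FPKM in the 14 libraries (points), with the group mean (bar) and SD (whisker), Lyn11 labeled and control on the left and Lck labeled and control on the right. Labeled libraries lie above all controls of their anchor for the 10 genes from *EGR1* to *SNORD3B-2* and below them for *TXNIP* and *PRKACB-DT*, and each panel has its own vertical range.

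Of 12647 protein-coding genes tested, 114 (0.901%, against 1.24% of all genes) were higher and 2 lower with both. *HEXIM1*, an inhibitor of the elongation kinase P-TEFb, was the only 1 of 10 tested members of the 7SK and P-TEFb list to pass. It stood at 5.02, 4.99, 4.90 and 5.27 in Lyn11 labeled libraries, against 4.65, 4.23, 4.14 and 4.01 in Lyn11 control libraries, and at 4.89, 4.76 and 4.90 in Lck labeled libraries, against 3.98, 3.98 and 4.11 in Lck control libraries. Groups did not overlap, and the difference was 0.79 ± 0.13 with Lyn11 (SE; limma adjusted p = 0.00669) and 0.82 ± 0.15 with Lck (adjusted p = 0.0108). Its Lyn11 call was lost with each construct fitted alone (limma adjusted p = 0.0846) and with a replicate block, and its Lck call with the block (adjusted p = 0.0638) and without Lck labeled replicate 1 or 3.

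Genes chosen after their values were seen add examples from cell-surface and nuclear proteins. *IL12RB2*, a subunit of the interleukin-12 receptor, stood at 3.21, 3.84, 3.59 and 3.73 in Lyn11 labeled libraries, against 1.99, 1.85, 1.93 and 1.87 in Lyn11 control libraries, and at 4.15, 4.24 and 4.11 in Lck labeled libraries, against 1.92, 2.21 and 2.27 in Lck control libraries. It rose by 1.69 ± 0.14 with Lyn11 and 2.03 ± 0.16 with Lck (SE; limma adjusted p = 3.79e-05 and 2.45e-05), with an interval of -0.80 to 0.10 between anchors. *SERTAD1*, a transcriptional coregulator, rose by 2.06 ± 0.35 and 2.31 ± 0.40, and Lyn11 control replicate 1 had 375 reads of it, against 63 to 113 in the other Lyn11 controls. *ACP4*, an acid phosphatase gene, and *SMIM47* overlap on opposite strands of chromosome 19, so their reads cannot be told apart without strand. *ACP4* rose by 2.71 ± 0.29 with Lyn11 and 3.10 ± 0.33 with Lck, and *SMIM47* by 2.37 ± 0.24 and 3.60 ± 0.28. *HM13-AS1*, a noncoding RNA on the strand opposite *HM13*, rose by 3.09 ± 0.44 with Lyn11 and 3.86 ± 0.50 with Lck. These SEs come from the shared spread. The SD between libraries was 0.93 in Lyn11 labeled and 0.81 in Lyn11 control, against 0.32 in Lck labeled and 0.16 in Lck control.

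Most spliceosomal small nuclear RNAs tested rose with both anchors. Of the 13 tested members of the spliceosomal RNA list, 10 rose with Lyn11, 10 with Lck and the same 10 with both, at medians of 2.94 with Lyn11 and 2.63 with Lck. Of 16 tested variant U1 genes, 12 rose with each anchor and with both (medians 2.53 and 2.61). Leaving out Lyn11 labeled replicate 4, Lyn11 control replicate 1 or both kept all of these 10 and 12 genes called with both anchors. Among 296 annotated small nuclear RNA genes 25 were higher with both (8.45%, against 1.24% of all genes tested). None of the 190 tested genes with U6 names was among them, and U6, unlike U1, U2, U4 and U5, carries no Sm ring. The U6-named genes named here carry pseudogene names, and some overlap another gene on the same strand, such as *RNU6-312P* with *PPIL3*. Their reads may come from that gene, so they do not measure U6 RNA itself. The letters ATTTNTG or ATTTTTTG stood in 21 of these 25 transcripts and in 97 of the 296, and 76 transcripts with them were not called higher with both. Medians with the letters were 0.23 with Lyn11 and 0.28 with Lck, against -0.09 and 0.01 without them. Most of the 25 are U1 copies, so they are not independent cases, and a part of the Sm ring in these differences was not tested.

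*RNU4-2* had 5.75, 5.73, 5.83 and 5.32 log2 FPKM in Lyn11 labeled libraries, against 3.54, 1.77, 2.12 and 2.19 in Lyn11 control libraries. Lck labeled libraries had 5.77, 5.13 and 5.13, against 2.26, 2.31 and 2.42 in Lck control libraries. Neither anchor's groups overlapped, and Lyn11 control replicate 1 was the highest control. The difference was 3.25 ± 0.30 with Lyn11 (SE; limma adjusted p = 9.14e-05) and 3.01 ± 0.34 with Lck (adjusted p = 0.000419), and the interval between anchors ran from -0.74 to 1.22. *RNU2-63P*, a U2 pseudogene, rose by 2.59 ± 0.54 with Lyn11 and 3.25 ± 0.62 with Lck, and kept its Lyn11 call in 19 and its Lck call in 23 of 27 alternatives; single left-out libraries that ended a call were Lyn11 labeled replicate 1, 2 or 3, Lyn11 control replicate 2, 3 or 4, Lck labeled replicate 1 or 2 and Lck control replicate 2 or 3. *RNU4-1*, with 0 to 17 reads in controls, rose by 3.27 ± 0.66 and 3.79 ± 0.76 and lost its Lyn11 call in 6 of 27 alternatives and its Lck call in 3.

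The single U1 genes are uncertain, because 8 of the 34 tested have the sequence of RNU1-1 letter for letter, RNU1-1 included, and the handling of reads that fit several copies is not given in the sources used here. *RNVU1-29* (chr1:146376807-146376970), 1 of those 8, had 6.29, 6.31, 6.06 and 6.39 in Lyn11 labeled libraries, against 3.86, 2.72, 2.79 and 2.70 in Lyn11 control libraries, and 6.08, 5.98 and 5.83 in Lck labeled libraries, against 2.32, 3.57 and 3.20 in Lck control libraries. It rose by 3.24 ± 0.27 with Lyn11 and 2.93 ± 0.31 with Lck (SE; limma adjusted p = 3.79e-05 and 0.000296). *RNVU1-15*, whose printed sequence departs from RNU1-1 (90.3% identity), holds neither motif. Identity here is the share of letters found in the same order, over the longer sequence, with gaps free. *RNVU1-15* stood at 7.03, 6.53, 6.44 and 6.20 in Lyn11 labeled libraries, against 4.72, 3.52, 3.29 and 3.47 in Lyn11 control libraries. Lck labeled libraries had 7.18, 6.93 and 6.59, against 3.74, 3.56 and 3.89 in Lck control libraries. The gene rose by 2.80 ± 0.27 and 3.17 ± 0.31. Neither gene's groups overlapped with either anchor.

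Some close copies of RNU1-1 did not pass, and some distant ones did. RNVU1-1, 97.0% identical to RNU1-1 by the same measure (6 mismatches in 164 bases), has the same 5′ end. It differed by 0.29 with Lyn11 and -0.16 with Lck and did not pass, at a mean level of 0.80. RNU1-27P, identical to RNU1-1, differed by 2.37 with Lyn11 and 3.34 with Lck and passed with Lck only. RNVU1-30, 80.5% identical (34 mismatches) and without that end, rose by 3.12 ± 0.26 and 2.85 ± 0.30. Of the 16 tested copies with the end 11 were higher with both, and of the 18 without it 8.

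Sums over copies do not depend on how reads were divided among the summed genes. They would change if reads that fit several copies were dropped or counted more than once, and that handling is not given. U1 reads over 34 genes came to 139.63, 153.02, 124 and 150.61 RPM (reads scaled to library depth) in Lyn11 labeled libraries, against 36.87, 21.06, 23.14 and 22.66 in Lyn11 control libraries, and to 155.55, 152.22 and 126.1 in Lck labeled libraries, against 28.39, 26.16 and 28.88 in Lck control libraries. Labeled libraries lay above every control, and the anchors' labeled libraries overlapped. The log2 difference was 2.48 with Lyn11 (exact permutation p = 0.0286, the smallest that 4 against 4 allows) and 2.37 with Lck (exact permutation p = 0.1, the smallest that 3 against 3 allows). Sums of U2, U4, U5 and U3, the last a nucleolar RNA that guides processing of ribosomal RNA, separated labeled from control libraries in the same way, by 0.72, 1.03, 2.12 and 2.21 with Lyn11 and 1.06, 0.92, 2.46 and 2.38 with Lck. Over the 8 families computed, the exact permutation p adjusted to 0.0457 with Lyn11 and 0.16 with Lck for each of these 5. U6, 7SL and 7SK sums did not separate the groups (-0.02, -0.21 and 0.04 with Lyn11, 0.05, -0.42 and 0.06 with Lck). The U6 sum, over 186 genes, has the limit given above for genes with U6 names. The U5 sum was spread widely, at 5.16 to 25.16 RPM in Lyn11 labeled libraries, against 1.63 to 3.93 in Lyn11 control libraries.

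**Figure D4:**
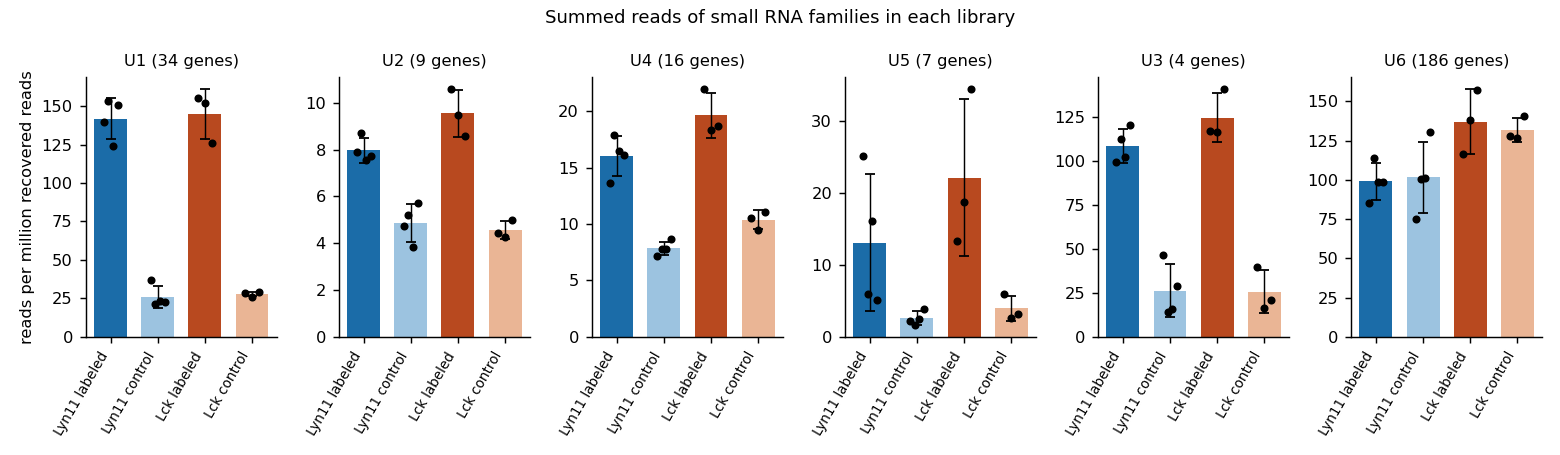
RPM (recovered reads scaled to library depth), summed over the genes of 6 small RNA families, are shown for each library (points) with the group mean (bar) and SD (whisker); each panel has its own axis from 0. U1, U2, U4, U5 and U3 are higher in labeled than in control libraries of both anchors, and U6 groups overlap.

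Copies of U3 rose too, 3 of the 4 tested with each anchor, against 1.6% of all genes higher with Lyn11 and 2.31% with Lck. How reads that fit several U3 copies were handled is not given either. *SNORD3B-2* rose by 2.52 ± 0.33 with Lyn11 and 3.20 ± 0.38 with Lck (SE; limma adjusted p = 0.00131 and 0.000512), with 1120 to 1715 reads in Lyn11 labeled, 165 to 804 in Lyn11 control, 1139 to 1283 in Lck labeled and 104 to 142 in Lck control libraries. The highest Lyn11 control was replicate 1. Of 24 tested snoRNA host genes, 2 rose with Lyn11, 1 with Lck and 1 with both, against 1.6%, 2.31% and 1.24% of all genes. Counts this small do not set the list apart. *SNHG12* rose with both anchors (1.06 ± 0.14 with Lyn11 and 1.14 ± 0.16 with Lck; limma adjusted p = 0.00135 and 0.00197), and *ZFAS1* with Lyn11 only (0.63 ± 0.12, against 0.48 ± 0.14 with Lck). *SNHG12* overlaps *TRNAU1AP* on the opposite strand, and *ZFAS1* overlaps *ZNFX1*.

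Of the 18 genes lower with both anchors the medians were -1.02 with Lyn11 and -1.17 with Lck. *TXNIP*, which binds and inhibits thioredoxin, was at 3.52, 3.51, 3.91 and 3.24 in Lyn11 labeled libraries, against 4.32, 4.46, 4.53 and 4.50 in Lyn11 control libraries. It was at 3.25, 3.16 and 3.29 in Lck labeled libraries, against 4.25, 4.31 and 4.15 in Lck control libraries. With both anchors labeled libraries lay below every control, and it fell by 0.91 with Lyn11 and by 1.00 with Lck (SE 0.13 and 0.15; limma adjusted p = 0.00175 and 0.00206), with an interval between anchors of -0.32 to 0.51. Of the 6 other members of its list none passed, and its arrestin-domain relatives *ARRDC3* (-0.31 and -0.39) and *ARRDC4* (-0.30 and -0.26) had small negative differences. *PRKACB-DT*, a long noncoding RNA divergent from *PRKACB*, stood at 1.56, 1.48, 1.21 and 1.08 in Lyn11 labeled libraries, against 2.50, 2.87, 2.66 and 2.77 in Lyn11 control libraries, and at 0.67, 0.97 and 0.91 in Lck labeled libraries, against 2.71, 2.81 and 2.41 in Lck control libraries. It fell by 1.37 with Lyn11 and by 1.79 with Lck. The remaining 8 of the 10 named falls had Lyn11 differences of -1.09 to -0.60 and Lck differences of -1.23 to -0.74, and each of the 8 lost at least 1 of its calls in some alternative.

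In lists of other kinds calls were few or none, which at 1.6% and 2.31% of all genes higher and 0.3% and 0.403% lower says little about lists of this size: 0 members were called among 24 oxidative stress genes, 19 integrated stress response genes, 13 cytosolic heat shock genes, 30 inner-leaflet kinases and G proteins, 43 plasma membrane transporters and receptors and 31 endoplasmic reticulum genes. Likewise 0 were called among 35 actin and focal adhesion genes, 20 histone genes, 15 SR splicing factors and CLK kinases, 12 nuclear-retained long noncoding RNAs, 2 other stable small RNAs and the 21 tested marker genes of the HEK293T, blood, fibroblast and epithelial lists. The medians of these lists ran from -0.21 to 0.27 with Lyn11 and from -0.44 to 0.31 with Lck. Of 58 ribosomal protein genes 1, *RPS9*, rose with both, against 1.24% of all genes. It overlaps *LILRB3* and *LILRA6* on the opposite strand, and it kept its Lyn11 call in 21 and its Lck call in 20 of 27 alternatives, losing the Lck call without any 1 of the 6 Lck libraries and the Lyn11 call without Lyn11 labeled replicate 2 or 4 or Lyn11 control replicate 3. Of the 14 tested members of the list of mitochondrially encoded RNAs 0 passed, at medians of 0.44 with Lyn11 and 0.65 with Lck. Among the 13 mitochondrial transfer RNA genes tested, 1 was higher with Lyn11 and 0 with Lck (medians 0.32 and 0.63).

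The genes nearest to a difference between the anchors were mostly pseudogenes and small RNAs with few reads, and all missed the threshold (limma adjusted p = 0.999 each). With the Lck difference the larger, *RN7SL338P*, a 7SL pseudogene, stood at 2.24, 2.44, 2.68 and 2.14 in Lyn11 labeled libraries, against 1.69, 1.06, 0.97 and 0.82 in Lyn11 control libraries, and at 3.49, 4.0 and 3.68 in Lck labeled libraries, against 0.57, 1.50 and 0.83 in Lck control libraries. It rose with both, by 1.24 ± 0.23 with Lyn11 and 2.76 ± 0.27 with Lck, and the difference between anchors was -1.52 (95% interval -2.28 to -0.76; limma unadjusted p = 0.000759, adjusted p = 0.999). *SLC10A1*, a bile acid transporter, was the coding gene among the 5 on this side, at 2.01, 2.15, 2.12 and 1.83 in Lyn11 labeled libraries, against 0.54, 0.66, 0.71 and 0.75 in Lyn11 control libraries, and at 2.79, 2.76 and 2.90 in Lck labeled libraries, against 0.69, 0.87 and 0.66 in Lck control libraries. The difference between anchors was -0.71 (-1.13 to -0.29; limma unadjusted p = 0.00277, adjusted p = 0.999), in a gene named for the small unadjusted p of this difference. The other 3 were *RNA5SP123*, *NOP56P3* and *SRP14P5*, at -0.74, -0.99 and -1.46. *NOP56P3* differed by 0.685 with Lyn11 and rose by 1.675 with Lck. *RNA5SP123* and *SRP14P5* were instead called lower with Lyn11 in the main fit, at -0.59 and -1.23. With Lck they differed by 0.15 and 0.23 and were not called.

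With the Lyn11 difference the larger, *GUSBP17*, a pseudogene of the *GUSB* glucuronidase, stood at 1.41, 1.33, 1.44 and 2.40 in Lyn11 labeled libraries, against 0.32, 1.17, 1.08 and 1.09 in Lyn11 control libraries, and at 1.42, 1.08 and 1.37 in Lck labeled libraries, against 2.72, 1.92 and 2.08 in Lck control libraries. Labeled libraries were all higher with Lyn11 and all lower with Lck, neither difference passed, and the difference between anchors was 1.68 (0.79 to 2.56; limma unadjusted p = 0.00118, adjusted p = 0.999). Lyn11 labeled replicate 4 and Lyn11 control replicate 1 set the Lyn11 extremes. *RNU6-312P*, a U6 pseudogene with 1 to 21 reads, fell by 2.13 with Lck and differed by -0.45 with Lyn11, and *RNU6-942P*, *RPLP1P13* and *STK16P1* had differences between anchors of 1.22, 1.24 and 1.08. A better-read case, *PCF11*, lay on the other side, with the Lck difference the larger. *PCF11*, a factor of 3′ end cleavage, was chosen after its values were seen. It rose by 0.71 ± 0.11 with Lck (limma adjusted p = 0.00262), against 0.28 ± 0.09 with Lyn11 (adjusted p = 0.172). Its difference between anchors was -0.43 (-0.73 to -0.12, limma unadjusted p = 0.00932, adjusted p = 0.999).

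**Figure D5:**
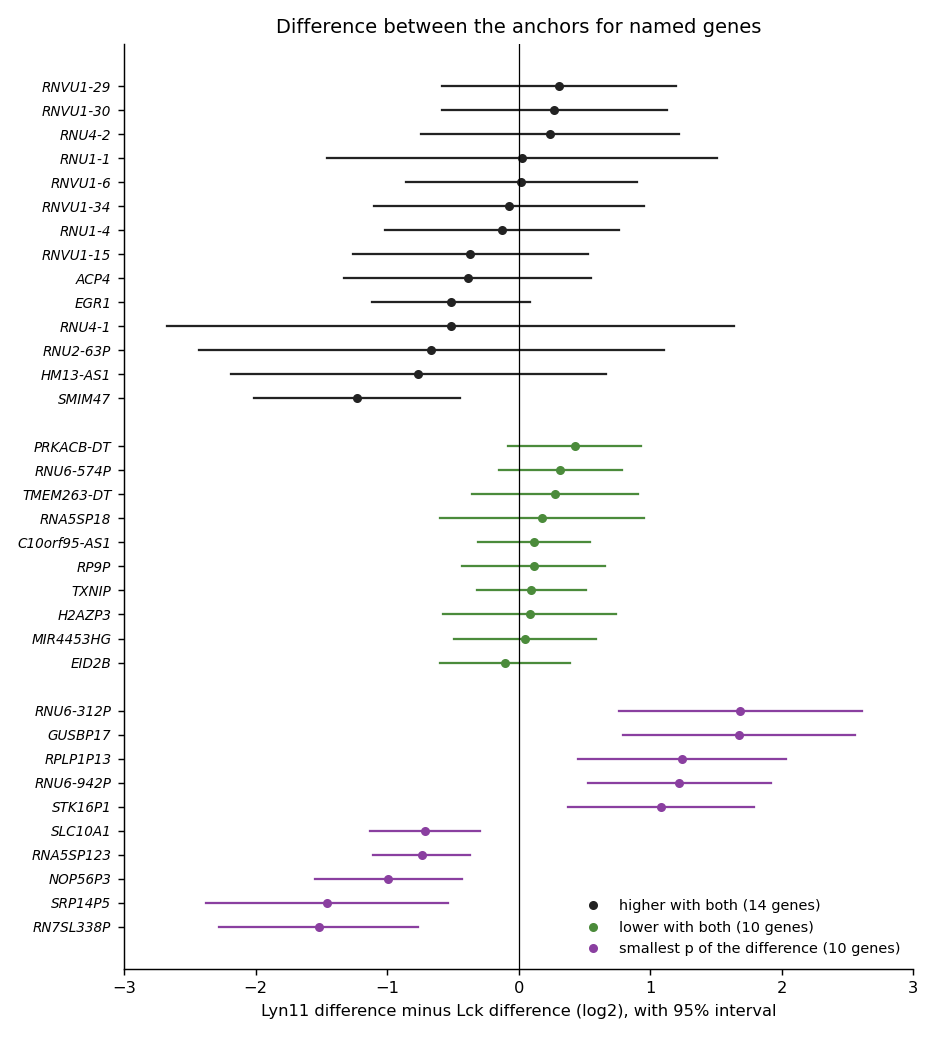
Points give the Lyn11 difference minus the Lck difference (log2) and lines its 95% interval, for 14 named genes higher with both anchors, the 10 lower with both and the 10 with the smallest unadjusted p of the difference. Of the first 24 only *SMIM47* (-1.23, -2.01 to -0.45) has an interval that leaves out 0, and the last 10 were chosen for theirs.

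Genes named for a call with 1 anchor were also mostly small RNAs. With Lyn11 only, *RNU5A-8P*, a U5 pseudogene, rose by 2.76 ± 0.55 with Lyn11, against 2.19 ± 0.64 with Lck (limma adjusted p = 0.103), and *RNU6-433P* by 1.81 ± 0.41, against 0.15 ± 0.47. With Lck only, *RNU6-922P* rose by 3.72 ± 0.61, against 1.93 ± 0.53 with Lyn11, and *SHISA4*, a membrane protein gene, by 2.61 ± 0.55, against 1.85 ± 0.47. *SHISA4* had 213 reads in Lyn11 control replicate 1, against 23 to 30 in the other Lyn11 controls, and without that library it passed with Lyn11 too (2.50, limma adjusted p = 7.65e-05). Of the 20 genes named in this way, 9 had an interval between anchors that left out 0, and 0 passed the adjusted test.

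In the outer-face constructs, whose libraries had no part in the choice of genes, 229 of the 265 genes higher with both had a difference above 0 with CD28 (median 0.88) and 253 with PDGFR (median 1.77), against 53.2% and 53.0% of all 21332 genes (medians 0.03 and 0.02). All 18 genes lower with both had differences under 0 with either construct (medians -0.98 with CD28 and -0.93 with PDGFR). Those libraries hold 11.33 to 16.24 M recovered reads. A fit of all 26 libraries called 29 of the 265 higher with CD28 (10.9%, against 0.192% of all genes) and 104 with PDGFR (39.2%, against 1.32%). These counts are not on the footing of the main fit: in the fit of all 26 libraries 126 genes were called with Lyn11 and 174 with Lck, against 405 and 578.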

How the data were processed

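Libraries were grouped by title, and 14 of 26 entered the main fit. The CD28 and PDGFR calls came from an alternative fit of all 26. Per the labels, all are HEK293T; the authors deposited 1 table of log2 FPKM for 25745 genes, made with HISAT2 2.1.0, edgeR and hg38 per the submitters' processing notes, whose settings, annotation, strand and multi-read handling are not given in the sources used here. In 98.5% of genes every value equalled a whole read (within 0.05 read) plus about 1.003 read of prior, given GENCODE 29 exon lengths, so reads were recovered and used for depth, families and an alternative fit. Such reads without molecular identifiers are not independent molecules.

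Genes with log2 FPKM above 0 in at least 3 of the 14 libraries (21332) were tested with limma 3.58.1 (R 4.3.3; intensity trend, 4 group means, 10 residual degrees of freedom, two-sided, Benjamini-Hochberg adjusted p under 0.05 per comparison). The 3 contrasts were labeled minus control with Lyn11, the same with Lck, and their difference. Family sums were compared by exact permutation (scipy 1.17.1). The procedure was tested on simulated data. Sequences came from GENCODE 29 and RefSeq.

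Members and gene lists were chosen with earlier results of these data known. Named genes were those called with both anchors, without overlap of libraries and with mean log2 FPKM of at least 1 (15 largest, 10 smallest), 5 a side nearest to a difference between anchors, 5 a side called with 1 anchor, called list members, and 7 known from those results. Alternatives changed the libraries fitted, weights, filter, scaling, pseudocount (1 or 0.1), trend, count weighting (voom), replicate block and single libraries. Same-numbered libraries did not deviate together. The sequence and values of 1 further small RNA gene are not reported here.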

Additional observations from a re-analysis of the deposited data

Results flagged for a closer look

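In 13 of 164 groups of 4 libraries of the named genes, 1 library lay far from the other 3 by Dixon's ratio, which chance gives in about 1 of 20 groups; groups of 3, such as those of Lck, are too small for it. In log2 FPKM, Lyn11 control replicate 1 was the library in 7 of them. It stood at 3.86 for RNVU1-29 (the other 3 at 2.70 to 2.79), at 4.72 for RNVU1-15 (3.29 to 3.52), at 5.02 for SNORD3B-2 (3.15 to 3.43), at 3.48 for GADD45B (2.58 to 2.71) and at 1.97 for SHISA4 (-0.77 to -0.48). It was low for MIR4453HG, at 1.64 (2.14 to 2.15), and for GUSBP17, at 0.32 (1.08 to 1.17). Lyn11 control replicate 4 had -1.67 for RNU1-27P (0.62 to 1.04). Among Lyn11 labeled libraries, replicate 4 had 2.40 for GUSBP17 (1.33 to 1.44), replicate 3 had -0.24 for RNU7-175P (0.60 to 0.63) and 4.40 for SNHG12 (4.75 to 4.77), and replicate 1 had 0.98 for LINC02818 (2.18 to 2.35) and 4.49 for ZFAS1 (4.03 to 4.08). For the U1 and U3 genes, GADD45B and SHISA4, a high control makes the Lyn11 difference smaller.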

How the results depend on the processing

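Counts of genes called with Lyn11, with Lck and with both were 405, 578 and 283. With all 26 libraries in the fit they were 126, 174 and 94, with each construct fitted alone 114, 910 and 101, with weights by construct 186, 1682 and 181, and with a stricter filter (log2 FPKM above 1 in at least 6 libraries, 16015 genes) 164, 238 and 120. With the replicate block they were 158, 235 and 114; the numbers do not pair the libraries (correlations of deviations from -0.298 to 0.176, and 3 of 14 libraries nearest to their own number). Leaving out 1 library gave 208 to 568 with Lyn11, 258 to 678 with Lck and 164 to 375 with both. The Lyn11 count moved by over 1.5 times without Lyn11 labeled replicate 2 (208) or 4 (247) or Lyn11 control replicate 2 (250), 3 (233) or 4 (256), and the Lck count without each Lck library (258 to 300). Leaving out Lyn11 labeled replicate 4 and Lyn11 control replicate 1 together, chosen after seeing the data, gave 376, 790 and 289. The share of Lck calls that were higher was 85.1%, 79.5% alone and 95.4% with all 26 libraries. The causes were not tested. The difference between anchors gave 0 calls throughout. Of 130 calls of 82 named genes, 59 held in all 27 alternatives, 71 were lost in at least 1 and 0 reversed; EGR1, FOS, FOSB, CCN1, SNHG12, TXNIP, PRKACB-DT and RNU4-2 kept both. Depth limits the small RNAs, many under 100 reads in a library.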
